A study of Mus musculus with 4 samples.

Results

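The 34 genes described here encode endoplasmic reticulum (ER) chaperones, folding enzymes, degradation and export factors, and the sensors of the unfolded protein response. They were picked by gene name among the transcript probes of a mouse expression array, with the brightest probe standing for each gene. All 34 were measured, among 18388 genes in all, and each was well above background on all 4 arrays. A gene counted as measured when, in 1 genotype or in both, each array had more than 50% of the probe's spots flagged by the scanner software as well above background.

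The cells were primary kidney tubular cells from male mice aged 8 weeks on the B6.J background, cultured in a renal growth medium. The samples were 2 of wild type cells and 2 of SerpinB2-/- cells, which lack the serine protease inhibitor SerpinB2. All 4 samples received PMA, a phorbol ester and activator of protein kinase C, at 100 ng/ml, and no untreated cells were analysed here, so the response to PMA was not measured. Nothing in the labels says whether samples of a genotype came from separate mice, cultures or pools of mice, and p-values then measure only the spread between these samples, which may be technical.

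Secretory and membrane proteins enter the ER through a channel, fold there with the help of chaperones and disulphide enzymes, and leave in coated vesicles. When unfolded proteins build up, the membrane sensors IRE1, PERK and ATF6 start the unfolded protein response, which slows translation and turns on genes of folding, export and degradation. Tubular cells of the kidney carry a large load of membrane transporters and receptors that are made by this route.

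A gene's level is given as its scaled signal, which is the brightness of its probe after the arrays were brought to a common 75th percentile. Signals of different genes come from different probes and are not compared. A change is the log2 of SerpinB2-/- over wild type with its standard error from limma (n = 2 against 2), and a gene was called higher or lower where the Benjamini-Hochberg adjusted p over all 18388 genes was under 0.05. An exact permutation test of a single gene cannot go below p = 0.333 with these numbers, so every call rests on the spread that limma shares between genes. Serpinb2 itself read 3207 and 3276 in wild type and was not well above background on either SerpinB2-/- array (limma adjusted p = 0.000676). With each SerpinB2-/- signal raised to the lowest well-above-background signal of its array, Serpinb2 was still at least 140-fold lower.

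Each array had 23409 to 24476 of 39429 probes well above background, with no saturated spots. All arrays shared 1 slide and 1 scan, with the wild type arrays in the first positions, and position on the slide cannot be told apart from genotype. Of 16 tubular epithelial markers 14 were measured, while Umod and Slc12a1, markers of the thick ascending limb, were not well above background. In RNA of whole cultures, fewer cells of a type and less RNA per cell cannot be told apart.

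A well known control element of this response is the ER stress element, the letters CCAAT and CCACG with 9 bases between them, to which ATF6 binds together with NF-Y. RefSeq promoters on GRCm38.p6, from 250 bases before to 50 after the annotated start, were matched for 29 of the 34 genes, and Atf6, Hyou1, Manf, Derl1 and Sec61a1 had no entry in that table. An exact match on either strand lay in 9 of the 29 (31.0%), against 37 of 27025 genes of the whole table (0.137%). A second form, ER stress element II, with ATTGG and CCACG set 1 base apart, was looked for after the data had been seen and lay in Dnajb11 and Herpud1, 2 of 29 (6.90%) against 12 of 27025 genes (0.0444%). CCACG alone, which both elements contain, lay in 24 of 29 (82.8%) against 35.5% of the table. The counts for the whole table include the 29 genes. The genes were picked by name for this response and the elements are known from it, so these shares are no test of the list. The stretches below show the elements of 4 chaperone genes, of the degradation ligase gene Syvn1, and of both genes with the second form; they are printed 5′ to 3′ on the strand of the gene, with the element in capitals. In Creld2 and in the second site of Hsp90b1 the element lies on the opposite strand, so its letters read as CGTGG and ATTGG.

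Hspa5, chr2:34772010-34772058, plus strand: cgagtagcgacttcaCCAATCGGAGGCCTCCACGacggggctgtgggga
Hsp90b1, chr10:86705518-86705671, minus strand: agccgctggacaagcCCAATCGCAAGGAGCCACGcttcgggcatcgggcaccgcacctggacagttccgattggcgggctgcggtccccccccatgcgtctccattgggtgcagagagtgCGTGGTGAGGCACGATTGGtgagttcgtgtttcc
Creld2, chr15:88819505-88819553, plus strand: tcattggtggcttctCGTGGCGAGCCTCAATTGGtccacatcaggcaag
Dnajc3, chr14:118937812-118937860, plus strand: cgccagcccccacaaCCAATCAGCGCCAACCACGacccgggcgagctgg
Syvn1, chr19:6046517-6046565, plus strand: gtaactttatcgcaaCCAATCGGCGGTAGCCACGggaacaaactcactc
Herpud1, chr8:94386362-94386410, plus strand: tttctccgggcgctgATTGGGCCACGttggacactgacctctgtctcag
Dnajb11, chr16:22857844-22857870, plus strand: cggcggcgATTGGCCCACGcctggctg

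The element of Hspa5 begins 65 bases before the annotated start, that of Syvn1 44 bases before it, and that of Herpud1 52 bases before it. In Dnajb11 the element lies 8 to 18 bases into the transcribed part. Calr, Canx, Derl3 and Pdia6 were the other genes with an ER stress element. Of the 9 genes with that element 7 had a log2 change above 0, their median was 0.10, and limma called 0 of them at the adjusted threshold. The 18 genes with neither element had the same median to 2 decimals (0.10), with 15 above 0, 2 called higher and 1 called lower. The 11 genes with either element had a median of 0.17, with 9 above 0, and Herpud1 was the 1 called gene among them. The 2 genes with the second form had a median of 0.31. Differences between these groups were not tested. These matches are a description of letters in a window and do not show that a factor binds there.

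The changes were small. Of the 34 genes, limma called 4 higher in SerpinB2-/- cells (Manf, Herpud1, Edem1 and Sec24d) and 1 lower (Edem2), with folds between 1.20 and 1.32 for the higher genes. The 5 calls are 14.7% of the list, beside 15.7% of all genes called in either direction. In the higher direction the share was 11.8% beside a background of 6.01%, and in the lower direction 2.94% beside 9.69%. A total of 9 of the 34 had an unadjusted limma p under 0.05, as did 6293 of all 18388 genes. The unadjusted counts given below for roles and further lists stand beside that same background.

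**Figure D1:**
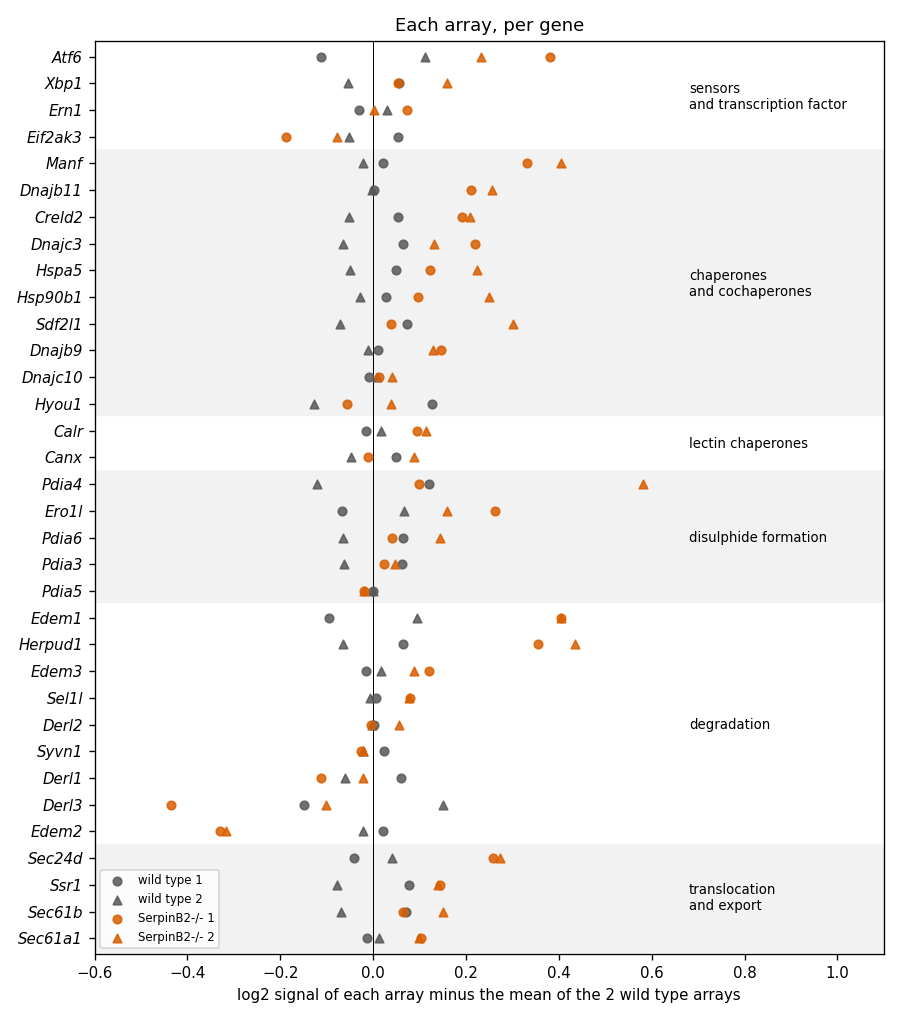
Each point is 1 array, as log2 signal minus the mean of both wild type arrays for that gene, with genes grouped by role (grey, wild type; orange, SerpinB2-/-). Both orange points lie clear of both grey points for Manf, Herpud1, Edem1, Sec24d and Edem2, and 13 of 34 genes overlap, as do 6557 of all 18388.

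Of the 3 sensor genes and Xbp1, limma called 0 (1 of the 4 had an unadjusted p under 0.05). Atf6, the sensor that is cut in the Golgi to release a transcription factor, read 632 and 738 in wild type cells, against 889 and 802 in SerpinB2-/- cells. The groups did not overlap, and the log2 change was 0.31 ± 0.10 (limma adjusted p = 0.110). Xbp1, whose mRNA is spliced by IRE1 into the code for an active transcription factor, read 48599 and 45023 against 48535 and 52209. The array probe does not tell the spliced from the unspliced form, and the groups overlapped (log2 change 0.11 ± 0.07, adjusted p = 0.363 by limma).

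Ern1, which encodes IRE1 alpha, read 418 and 437 against 450 and 428. Its groups overlapped, with a log2 change of 0.04 ± 0.06, and a dimmer probe of the gene gave -0.30. Eif2ak3, the gene of PERK, the kinase that slows translation, read 6542 and 6082 in wild type cells, against 5536 and 5980 in SerpinB2-/- cells. Both SerpinB2-/- values were below both wild type values, and its log2 change of -0.13 ± 0.07 did not pass (limma adjusted p = 0.269) and came to 0.0021 under median scaling, which raised the change of every gene by the same amount.

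Among the 10 chaperones and cochaperones the median log2 change was 0.17, and limma called 1 of the 10, Manf, higher (beside 6.01% of all genes). Both SerpinB2-/- values were above both wild type values for 8 of the 10 (80.0%, beside 32.5% of all genes and 52.6% of cytosolic and mitochondrial chaperones). These 8 include Dnajc10, whose log2 change was only 0.03. Manf encodes a small secreted ER protein that is induced by ER stress and binds the chaperone BiP. Its signal was 19007 and 18451 in wild type cells, against 23575 and 24793 in SerpinB2-/- cells. The gap between the genotypes was several times the gap within each. Manf rose 1.29-fold (95% interval 1.16 to 1.44, log2 change 0.37 ± 0.06, limma adjusted p = 0.0248); its probe lies at chr9:106791278-106791337 in the mm9 coordinates of the files. It passed in 9 of the 11 alternative analyses of all arrays, and no filter on dim probes was among those that lost the call. Its adjusted p by limma ran from 0.00722 to 0.121 over those 11.

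Hspa5, the gene of BiP, the main chaperone of the ER and the partner that holds the sensors inactive, read 106986 and 99856 in wild type cells, against 112565 and 120734 in SerpinB2-/- cells. Both SerpinB2-/- values were above both wild type values. Its log2 change was 0.17 ± 0.07 with a 95% interval of -0.01 to 0.36, and it did not pass (limma adjusted p = 0.163). Hsp90b1, the gene of the ER form of HSP90, read 87276 and 83876 against 91521 and 101737. The groups lay apart in the same order (log2 change 0.17 ± 0.08, limma adjusted p = 0.183).

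The gene nearest to the threshold among those not called was Dnajb11, a cochaperone that brings clients to BiP. It read 14363 and 14322 in wild type cells, against 16605 and 17127 in SerpinB2-/- cells, a log2 change of 0.23 ± 0.06 (limma adjusted p = 0.0560). It passed in 4 of the 11 alternative analyses of all arrays, median scaling and the authors' own table among them. Creld2, which encodes a secreted protein induced by ER stress, read 28655 and 26639 against 31549 and 31930. Its groups did not overlap (log2 change 0.20 ± 0.06, limma adjusted p = 0.103).

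Of the remaining cochaperones, Dnajc3 (the inhibitor P58IPK) had a log2 change of 0.18 and Dnajb9 (ERdj4) one of 0.14, each with groups that did not overlap. Sdf2l1, a stress-induced partner of ERdj3, had 0.17 ± 0.11, and its groups overlapped because SerpinB2-/- replicate 1 (2221) lay below wild type replicate 1 (2275). Dnajc10, a reductase with a J domain, had 0.03 ± 0.06 on its brightest probe and -0.25 on another. Hyou1, the large HSP70 of the ER, had -0.01 ± 0.10, with values of 371 and 311 against 326 and 349, and its sign turned under normexp and quantile scaling, as well as under median scaling, which moves all genes alike. The lectin chaperones, which hold glycoproteins during folding, did not pass: Calr had a log2 change of 0.10 ± 0.06 and Canx 0.04 ± 0.07, and Canx came out just below 0 under quantile scaling and under scaling by detected probes.

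Disulphide formation gave 0 limma calls among 5 genes, with 1 at an unadjusted p under 0.05 (Ero1l, now Ero1a). Ero1l encodes the oxidase that recharges the disulphide isomerases, and read 693 and 760 in wild type cells, against 871 and 810 in SerpinB2-/- cells. The groups did not overlap (log2 change 0.21 ± 0.08, limma adjusted p = 0.131). Pdia4, the isomerase also called ERp72, read 2291 and 1937 against 2255 and 3152. Only SerpinB2-/- replicate 2 lay above the wild type range, and the log2 change was 0.34 ± 0.18 (limma adjusted p = 0.257).

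The other isomerases lay near 0. Pdia6 had a log2 change of 0.09, Pdia3 0.04 and Pdia5 -0.02; Pdia3 turned below 0 under scaling by detected probes and Pdia5 reached 0.12 under median scaling, with the shift that all genes share. Pdia5 read 2825 and 2826 against 2789 and 2789, so its groups did not overlap although they lay 1.01-fold apart.

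Limma called 3 of the 9 genes of ER-associated degradation (33.3%, beside 15.7% of all genes), 2 higher and 1 lower. Herpud1 encodes a membrane protein that assembles the degradation complex and is strongly induced by ER stress. Its signal was 7882 and 7200 in wild type cells, against 9638 and 10187 in SerpinB2-/- cells, with no overlap. Herpud1 rose 1.32-fold (95% interval 1.15 to 1.50, log2 change 0.40 ± 0.07, limma adjusted p = 0.0318), from a probe at chr8:96919117-96919176 (mm9). It passed in 9 of the 11 alternative analyses of all arrays. No filter on dim probes was among those that lost the call (adjusted p = 0.135, the upper end of a limma range that began at 0.0107 over those 11).

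Edem1, a lectin that takes misfolded glycoproteins out of the folding cycle and a target of XBP1, read 3895 and 4443 in wild type cells, against 5509 and 5505 in SerpinB2-/- cells. The SerpinB2-/- arrays were nearly equal and both lay above the wild type pair. Edem1 rose 1.32-fold (95% interval 1.14 to 1.53, log2 change 0.40 ± 0.08, limma adjusted p = 0.0382), from a probe at chr6:108808920-108808979 (mm9). It passed in 9 of the 11 alternative analyses of all arrays. The call was lost under quantile scaling (limma adjusted p = 0.0528) and with no filter on dim probes (0.148). Its lowest adjusted p by limma over those 11 was 0.0136.

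Its relative Edem2, the mannosidase that trims the first mannose of such glycans, went the other way. It read 185 and 180 in wild type cells, against 145 and 147 in SerpinB2-/- cells, from a probe at chr2:155534678-155534737 (mm9) that was well above background on every array. Edem2 fell by 0.32 ± 0.06 on the log2 scale (limma adjusted p = 0.0275). This call held in 5 of the 11 alternative analyses of all arrays. It was lost under normexp background correction (-0.21, limma adjusted p = 0.0961) and quantile scaling (-0.22, 0.0681). The same was so for median scaling (-0.19, 0.0738) and the authors' table (-0.24, 0.0609). It was also lost with replicate number as a block (limma adjusted p = 0.0694) and with no filter on dim probes (0.133). The lowest adjusted p by limma over those 11 was 0.0214. The third member of this family, Edem3, had a log2 change of 0.10 ± 0.06 (limma adjusted p = 0.262).

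The retrotranslocation core gave no call. Sel1l, the adaptor of the ubiquitin ligase, had a log2 change of 0.08 and Syvn1, the ligase HRD1, -0.02, with a dimmer Syvn1 probe at -0.38. The derlins, membrane proteins of the exit channel, had -0.07 (Derl1), 0.03 (Derl2) and -0.27 ± 0.15 (Derl3). Derl3 read 80.9 and 99.7 in wild type cells, against 66.4 and 83.7 in SerpinB2-/- cells, and its groups overlapped. Derl2 turned to -0.02 under quantile scaling. Median scaling, which moves every gene up alike, put Syvn1 at 0.11 and Derl1 at 0.07.

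Translocation and export genes all had log2 changes of 0.10 or above, with 1 of 4 called higher (25.0%, beside 6.01% of all genes). Sec24d, a cargo-binding subunit of the COPII coat that carries proteins out of the ER, read 3760 and 3975 in wild type cells, against 4623 and 4671 in SerpinB2-/- cells. Both pairs were tight and lay apart. Sec24d rose 1.20-fold (95% interval 1.08 to 1.34, log2 change 0.27 ± 0.06, limma adjusted p = 0.0490), from a probe at chr3:123068106-123068165 (mm9). It passed in 7 of the 11 alternative analyses of all arrays. The call was lost under quantile scaling (limma adjusted p = 0.0624) and under scaling by detected probes (0.0662). It was also lost with replicate number as a block (0.118) and with no filter on dim probes (0.187). The lowest adjusted p by limma over those 11 was 0.0153. Sec61a1, the pore of the translocation channel, had 0.10 ± 0.06, Sec61b, its small subunit, 0.11 ± 0.08, and Ssr1, of the translocon-associated complex, 0.14 ± 0.07.

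**Figure D2:**
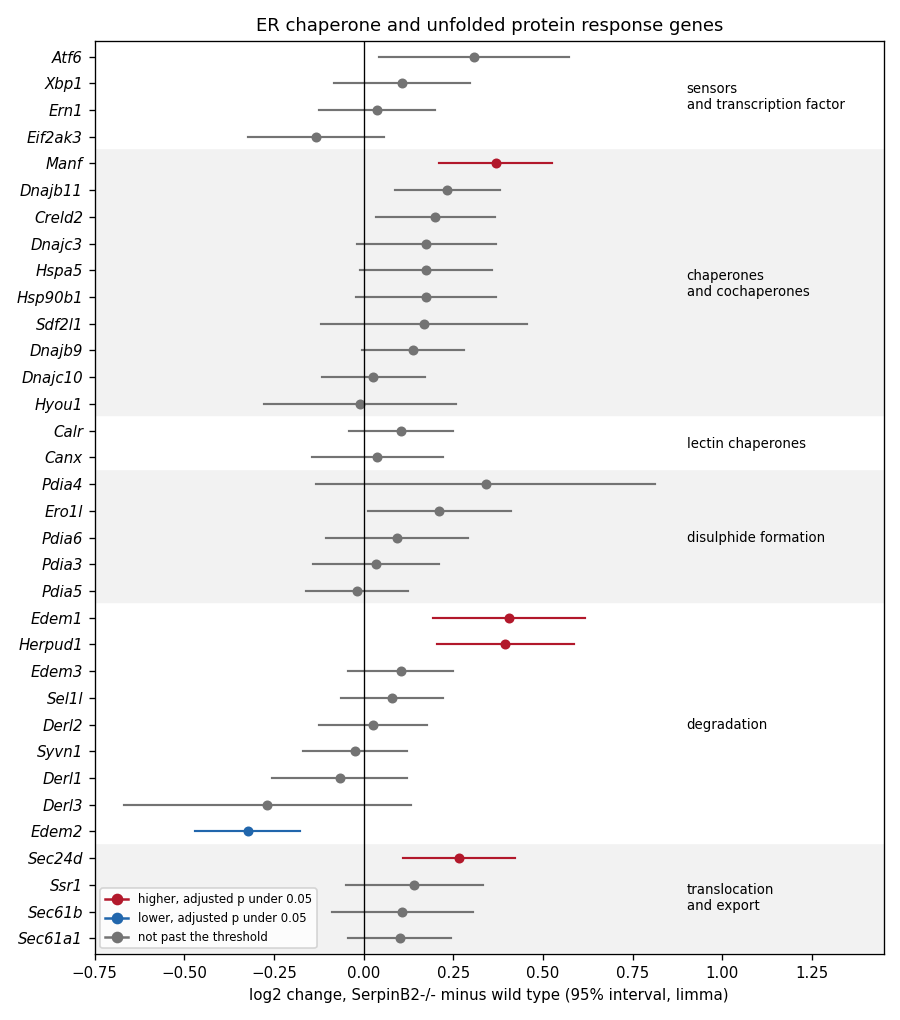
Log2 change of each gene, SerpinB2-/- minus wild type, with its 95% interval from limma, grouped by role (red, called higher; blue, called lower; grey, not past an adjusted p of 0.05). The 4 genes called higher lie between 0.27 and 0.40, and Edem2 lies at -0.32.

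The calls depended on having every sample. Without any 1 of the 4 arrays limma called 0 of the 34 genes (8 to 9 had an unadjusted p under 0.05), and adjusted p for the 5 genes then ran from 0.0549 for Edem1 to 0.189 for Sec24d. With no filter on dim probes, which brings 29870 genes into the adjustment, limma also called 0. There 6 of the 34 had an unadjusted p under 0.05, as did 5771 of the 29870. The direction of the 5 genes was the same in all 15 alternatives.

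As a group, 27 of the 34 had a log2 change above 0 (79.4%, beside 51.2% of all genes) and 7 below. The share above 0 was 71.4% over the 6 further lists described below, and 78.9% among cytosolic and mitochondrial chaperones. Both SerpinB2-/- values were above both wild type values for 18 genes (52.9%), where 32.5% of all genes were so placed, and below them for 3 genes (8.82%), where the background was 31.9%. The shares above and below were 43.7% and 16.7% over the 6 further lists. Among cytosolic and mitochondrial chaperones they were 52.6% and 5.26%. The median log2 change was 0.11 beside 0.01 over all genes. Set against the mean of the wild type arrays, the median of the 34 was 0.02 and -0.02 on the wild type arrays and 0.09 and 0.13 on the SerpinB2-/- arrays.

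How far the group lies above 0 depended on the scaling. When arrays were scaled by their medians, the all-gene median became 0.14 and that of the 34 became 0.24, with 32 of 34 above 0. This scaling called 15 of the 34, all higher, and turned the split over all genes from 1105 higher and 1781 lower to 4342 higher and 1249 lower. Scaling by detected probes gave a median of 0.07 with 22 above 0. Both scalings move every gene by the same amount, so the distance of the 34 from the all-gene median (0.10) is fixed under them. It was 0.07 under quantile scaling.

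**Figure D3:**
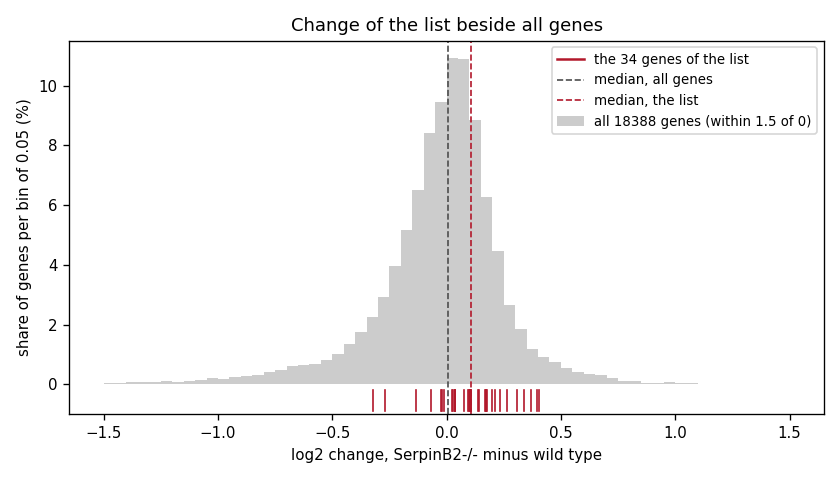
Grey bars give the share of all 18388 genes (percent per bin of 0.05) by log2 change, for genes within 1.5 of 0, and red ticks below the bars mark the 34 genes. Dashed lines are the medians, 0.01 for all genes and 0.11 for the 34, which all lie between -0.32 and 0.40.

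Brightness moved with the change and its part was not tested. Genes were split into 10 classes of equal size by brightness, and the median log2 change over all genes went from -0.12 in the dimmest class to 0.06 in the brightest. The 34 genes were bright: 9 lay in the brightest class and 7 in the next. The 9 all had log2 changes above 0, with a median of 0.11, 0 limma calls and 0 at an unadjusted p under 0.05. The 1839 genes of that class had a median of 0.06, with 75.1% above 0 and 3.32% called. Both SerpinB2-/- values were above both wild type values for 43.7% of the 1839, and for 5 of the 9 (55.6%). The 25 others had a median of 0.10 beside -0.01 for all genes outside that class, and they held all 5 calls (20.0%, near the 17.1% of those genes). Among the 25, Edem2, called lower, lay in class 3 counted from the dimmest, where the all-gene median was -0.08. Derl3 lay in class 2, where it was -0.11. The comparison with the brightest class was chosen after the data were seen.

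Markers of other cell types also moved with genotype. B and plasma cells, which are rich in ER, left little trace: Pax5, Jchain and Mzb1 were among the markers not well above background, and limma called 0 of the 3 that were measured (1 at an unadjusted p under 0.05). Leukocyte and macrophage markers were lower for 11 of 18 (61.1%, beside 9.69% of all genes), with none higher. Their summed signal was 31973 to 34328 in wild type and 24967 to 26741 in SerpinB2-/- cells. Endothelial markers were lower for 11 of 13 (84.6%, beside 9.69% of all genes) and higher for 1 (Flt1), with sums of 18099 to 18549 against 12595 to 15097. Of 13 fibroblast and pericyte markers Col3a1 and Postn were higher (15.4%, beside 6.01% of all genes) and none was lower. The sums of the 13 were 508406 to 616447 against 645088 to 729687. The bright probes of Tagln and Acta2, neither of them called, made up most of these sums. Tubular markers were lower for 5 of 14 (35.7%, beside 9.69% of all genes), Cdh1 and Epcam among them, and none was higher. The sums of the 14 were 575364 to 577062 against 455103 to 478826. Most of these sums came from the bright probes of Krt8, called lower, and Krt18, not called. Lrp2, Cubn, Aqp1 and Slc34a1 had log2 changes between -0.01 and 0.11, with overlapping groups and no call. The part of these cell markers in the ER gene values was not tested.

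The rest of the pathway was read from 6 further lists, of which 126 of 128 genes were measured. Limma called 5 of them higher and 2 lower. That is 5.56% in all, below the 15.7% of all genes, and the median log2 change was 0.05. Folding enzymes held 4 of the calls, all higher, among 31 measured. That is 12.9%, beside 6.01% of all genes called higher and 15.7% called in either direction. Fkbp11, a prolyl isomerase of secretory cells, read 763 and 764 in wild type cells, against 1158 and 1134 in SerpinB2-/- cells. That is a 1.50-fold rise with almost no spread inside a genotype (log2 change 0.58 ± 0.06, limma adjusted p = 0.00883). None of the 34 had a log2 change as large, though the differences between genes were not tested.

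The other folding enzymes called were Tmx1 and Txndc5, both of the disulphide isomerase family, and Hspa13, an HSP70 relative in the microsomes. Their log2 changes were 0.34, 0.30 and 0.29, with limma adjusted p of 0.0288, 0.0330 and 0.0434. P4hb, the founding disulphide isomerase, read 24558 and 24096 against 23370 and 24288, and the groups overlapped (log2 change -0.03 ± 0.06). Among 29 genes of translocation and glycosylation 1 was called, in the higher direction (3.45%, beside 6.01% of all genes). Spcs3, a subunit of signal peptidase, was this gene and read 36628 and 36937 against 45313 and 47202 (log2 change 0.33 ± 0.06, limma adjusted p = 0.0276).

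The PERK branch was measured through 12 genes around ATF4. Limma called 0 higher and 1 lower (8.33%, beside 9.69% of all genes), with 3 at an unadjusted p under 0.05. Sesn2, a stress-induced brake on mTORC1, read 7249 and 6934 in wild type cells, against 5591 and 5418 in SerpinB2-/- cells and fell by 0.37 ± 0.06 on the log2 scale (limma adjusted p = 0.0246). Atf4, the transcription factor of this branch, read 156201 and 137589 against 162493 and 190093, with no overlap and a log2 change of 0.26 ± 0.11 (limma adjusted p = 0.166). Of its other targets, those fixed for naming did not pass: Ddit3 (CHOP) had a log2 change of 0.04 ± 0.08 and Trib3 0.12 ± 0.14, both with overlapping groups, and Ppp1r15a (GADD34), which reverses the translation block, had 0.10 ± 0.06 with groups that did not overlap.

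Of 11 other sensors and membrane factors limma called 1 lower (9.09%, beside 9.69% of all genes). Creb3l4, a relative of ATF6, fell by 0.34 ± 0.07 on the log2 scale from 215 and 212 to 162 and 176 (limma adjusted p = 0.0355). Limma called 0 of 23 other degradation genes (5 at an unadjusted p under 0.05) and 0 of 20 COPII and transport genes (2 at an unadjusted p under 0.05). Outside the ER, 0 of 19 cytosolic and mitochondrial chaperones were called by limma (4 at an unadjusted p under 0.05), with a median log2 change of 0.07. Hspa8, the constitutive HSP70 of the cytosol, had -0.06 ± 0.08 with overlapping groups.

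**Figure D4:**
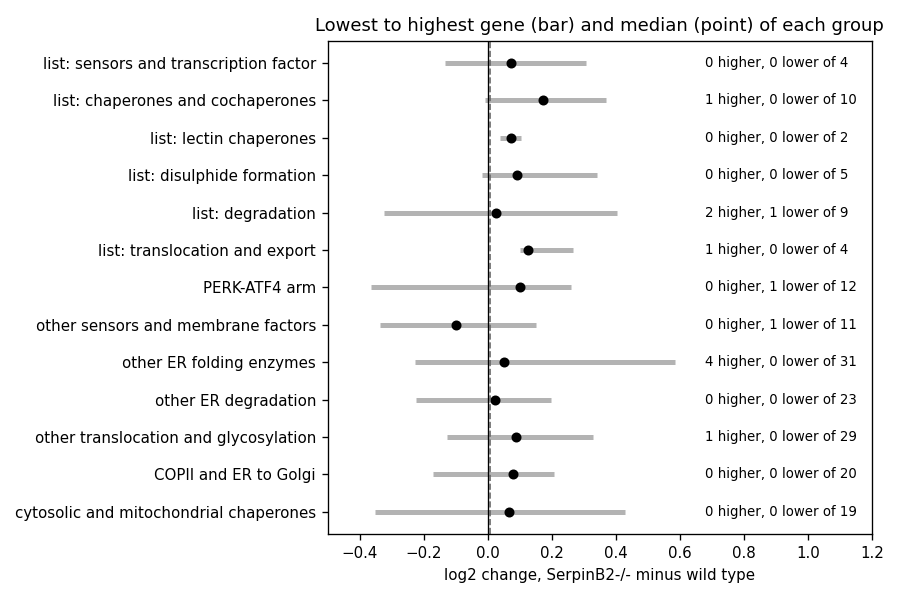
For each role among the 34 genes (marked as list) and for each further pathway list, the bar spans the lowest to the highest log2 change and the point is the median, with counts of limma calls at right; the dashed line is the median of all genes. The chaperone group has the highest median (0.17) and the other sensors and membrane factors the lowest (-0.10).

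**Figure D5:**
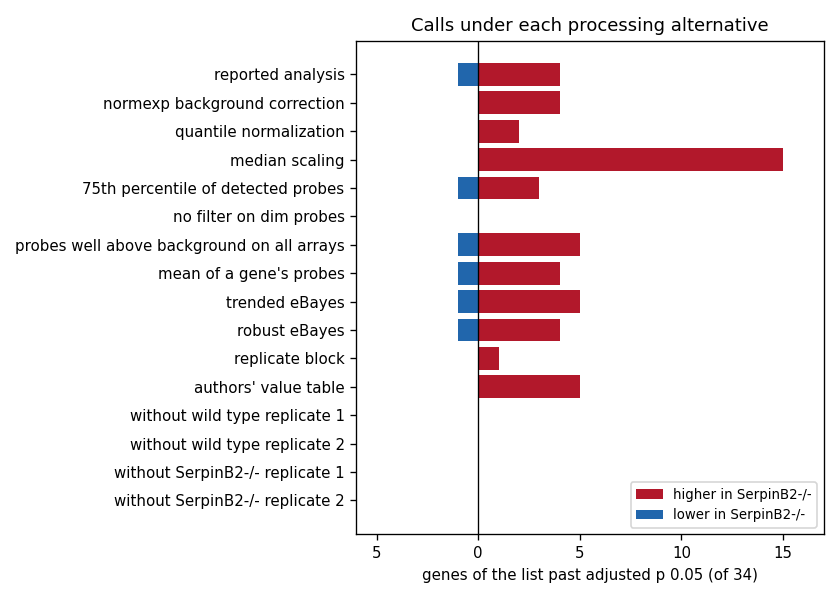
Number of the 34 genes past an adjusted p of 0.05 in the reported analysis and in each of 15 alternatives (red to the right, higher in SerpinB2-/-; blue to the left, lower). Counts run from 0 without a filter or without any 1 array to 15 under median scaling.

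Of the genes with more than 1 measured probe, Derl1, Derl2, Dnajb9, Pdia6, Sec61b and Ssr1 gave the same sign on all probes. The 3 probes of Derl2 gave 0.03, 0.03 and 0.22, and those of Ssr1 gave 0.14, 0.27 and 0.27. Ern1, Dnajc10 and Syvn1 differed between probes, as given above. None of the 5 called genes had a second measured probe.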

How the data were processed

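Total RNA (150 ng) of 4 cell samples was labelled with Cy3 and hybridised to one-colour arrays, per the labels' protocols. The deposited intensity values are the processed signal of Agilent Feature Extraction 10.7.3.1, per the submitters' processing notes and the file headers, background-subtracted and with replacement values for dim spots. The authors' own table of intensity values is set on each array to 1500 at the 75th percentile and goes no lower than 4. Its median ratio to the scanner signal was 0.698 to 0.787 per array. Not every probe followed that ratio, and Derl3 had a log2 change of -0.43 in that table and -0.27 here. How the table was made is not given in the sources used here, and it served as an alternative.

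Here, log2 of the processed signal was averaged over the unflagged spots of a probe (4 per probe), and each array's 75th percentile was subtracted. Printed signals are these values brought back to a linear scale by 1 common factor. The brightest probe passing the background filter stood for a gene. Probe names were matched to RefSeq symbols of GRCm38.p6 (28757 probes by accession, 221 by an older symbol); probe positions are in mm9 as in the files, and their place within exons was not analysed here. limma 3.58.1 in R 4.3.3 (lmFit, eBayes without trend) compared SerpinB2-/- with wild type over 18388 genes, after a check on simulated data. Precision is limited by the number of arrays.

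The 34 genes, the other lists and the alternatives were chosen with earlier results of these data known. Named genes are all 34, Serpinb2, and up to 4 called genes with the largest change in each pathway list. Atf4, Ddit3, Trib3, Ppp1r15a, P4hb and Hspa8 were named too, with up to 2 changed markers per cell type list. The names of markers not well above background were added after their values were seen. So were Flt1, Tagln, Acta2, Krt8, Krt18, Lrp2, Cubn, Aqp1 and Slc34a1. A cell marker is not reported here. Alternatives were normexp (offset 50), other scalings and filters, the mean of a gene's probes, trended and robust eBayes, the authors' table, a replicate block and each array left out.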

Additional observations from a re-analysis of the deposited data

How the results depend on the processing

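Of 510 alternative values for the 34 genes, 435 kept their direction and side of the threshold, 36 lost the call, 14 gained it and 25 changed sign. The 5 calls among the 34 became 2 with quantile normalization, 15 with median scaling, 0 with no filter on dim probes and 0 without any 1 replicate. Over all genes, 2886 calls became 5591 with median scaling (4342 higher and 1249 lower), 3 with no filter and 757 to 1579 without 1 replicate. The 7 calls among other pathway genes became 44 with median scaling, 0 with no filter, 18 with trended eBayes and 1 without any 1 replicate. The median of the 34 (0.11) became 0.24 with median scaling, 0.067 with the 75th percentile of detected probes and 0.085 to 0.15 without 1 replicate (0.15 without wild type replicate 1). With no filter more genes enter both the adjustment and the spread that limma shares between genes. With a replicate left out fewer samples enter the fit. The cause of these shifts was not tested.

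The sign changes, of genes with small changes, were these. With normexp Ern1 became -0.00052 and Hyou1 0.0051. With quantile normalization Hyou1 became 0.072, Dnajc10 -0.024, Canx -0.019, Pdia3 -0.013 and Derl2 -0.019. Median scaling adds the same amount to every gene, so changes slightly below 0 turn by construction: Eif2ak3 became 0.0021, Hyou1 0.13, Pdia5 0.12, Syvn1 0.11 and Derl1 0.068. With detected probes Ern1 became -0.0014, Dnajc10 -0.011, Canx -0.00023, Pdia3 -0.0030 and Derl2 -0.013. Averaging all probes of a gene gave Ern1 -0.13 and Dnajc10 -0.11. Without 1 replicate Hyou1 ran from -0.14 to 0.12, Canx from -0.011 to 0.087, Pdia3 from -0.026 to 0.097 and Derl2 from -0.0044 to 0.055.

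The labels do not say that replicate numbers pair the samples, and with 2 pairs the correlation of same-numbered deviations (0.26) cannot settle it. With the replicate block limma called 1 of the 34 (Edem1, adjusted p = 0.0458; Manf had 0.0520 and Herpud1 0.0518) and 2 other pathway genes. A planned look at protein ends was not run, since no protein sequences were used here.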

Other observations

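Wild type replicate 1 lay above replicate 2 for 23 of the 34 genes and SerpinB2-/- replicate 2 above replicate 1 for 23, with both at once for 19. Over all genes the median absolute log2 difference was 0.08 within each genotype and 0.14 to 0.16 between arrays of different genotypes.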
